A study of Mus musculus with 3 samples.

Results

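The miRNA hairpins that lie inside protein-coding genes were examined in Ago2 HITS‐clip libraries of N2A cells. A member was any gene of type miRNA with a symbol starting Mir (GENCODE mouse M21, GRCm38) that lay wholly in a protein-coding gene on the same strand, leaving out the Mirlet7, Mir9, Mir124a, Mir25, Mir93 and Mir106b loci. There were 676 such hairpins in 564 host genes, of 1174 hairpins with a Mir symbol. Of the others, 474 lay outside protein-coding genes on their strand, 20 were left out by name and 4 lay only partly in a gene. Just outside this limit, Mir8114 had a same-strand peak in 3 libraries, Mir8112 in 2, and Mir8092 and Mir718 in none.

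N2A is a mouse neuroblastoma line, and the 3 libraries formed 1 group, cells under basal conditions, numbered replicates 1 to 3. The cells received ultraviolet doses of 400 mJ/cm2 and then, repeatedly, 200 mJ/cm2, and RNA held by Ago2 was pulled down with the Wako antibody clone 2D4. The deposited table lists 711377, 498071 and 829936 peaks for replicates 1, 2 and 3, with chromosome, position, strand and a score, but no read counts, so depth is unknown. Nothing says that the samples came from separate cultures, so the spread between them may be technical. Confidence intervals below cover the counting of hairpins or peaks only.

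Hairpins inside genes are usually transcribed with their host as part of its primary transcript. Drosha cuts the hairpin out of the intron, Dicer then removes the loop, and one strand of the remaining duplex is loaded into an Argonaute protein. The strand from the 5′ side of the hairpin is called 5p and that from the 3′ side 3p. Mirtrons skip the Drosha step, because splicing itself sets the ends of the hairpin, and tailed mirtrons share only one end with the intron. The first bases of the loaded strand form the seed (bases 2 to 8), which pairs with target transcripts. In a crosslinked Ago2 pulldown, a peak over a hairpin can come from the loaded miRNA itself, from its precursor or from the host transcript.

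The name "intronic" held for most but not all members. The hairpin lay in introns only in 542 of 676, and 123 overlapped an exon of at least 1 protein-coding transcript. For 11 no coding transcript of the host spanned them, among them Mir22, Mir181c and Mir196b. By place, 339 lay in the interior of an intron, 7 began at its 5′ end, and 96 others lay on an exon. A further 202 ended within 5 nt of the intron's 3′ end and are called tailed mirtrons below, and 21 filled an intron from end to end and are called mirtrons, both by position alone. Sfmbt2, a Polycomb-group gene with a large rodent-specific cluster in an intron, held 71 of the 676.

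In 19 of the 556 members with a listed mature miRNA, a peak began within 2 nt of the 5′ end of the same mature miRNA in all 3 libraries. Over all Mir hairpins with a listed mature miRNA, 33 of 1007 did so (3.28%), and the 19 lie near that share. For this measure a peak was reduced to its centre by removing 30 nt on each side, and the centre had to cover at least 15 nt of the arm. The rule fixes only the 5′ end, and some of these peaks were wide. The 20 mature sequences of these hairpins are shown because all 3 libraries met their 5′ end within 2 nt. The seed (bases 2 to 8) is in capitals. The sequences were taken from RefSeq (GRCm38.p6).
miR-340-5p: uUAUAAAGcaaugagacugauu
miR-340-3p: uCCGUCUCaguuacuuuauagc
miR-148b-5p: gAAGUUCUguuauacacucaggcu
miR-101b-5p: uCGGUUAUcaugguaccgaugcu
miR-200b-3p: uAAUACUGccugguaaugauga
miR-449c-5p: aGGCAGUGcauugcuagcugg
miR-28a-3p: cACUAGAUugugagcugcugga
miR-708-3p: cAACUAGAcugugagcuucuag
miR-500-5p: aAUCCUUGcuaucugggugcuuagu
miR-331-5p: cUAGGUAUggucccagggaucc
miR-1306-5p: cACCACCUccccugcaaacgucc
miR-1930-5p: aCCUCCAUaguaccugcagcgu
miR-1964-5p: aGCUGGAGcacaaaagccggug
miR-3099-3p: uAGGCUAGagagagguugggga
miR-466q: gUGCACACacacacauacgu
miR-5618-3p: cUAUACCAuguaaagggu
miR-701-5p: uUAGCCGCugaaauagaugga
miR-3077-3p: cUGACUCCcugcuucuccgcag
miR-7012-3p: uGACCUGUggcuccucucccag
miR-7069-5p: uUGGGGGCcugggagggugacac

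These 20 arms had 20 different seeds. Across all 89 arms with a peak centre in all 3 libraries, 5 seeds were shared by a pair of members. They joined miR-148b-3p with miR-152-3p, miR-130b-3p with miR-301a-3p, miR-181c-5p with miR-181d-5p, miR-362-5p with miR-500-5p, and miR-326-3p with miR-330-5p.
miR-148b-3p: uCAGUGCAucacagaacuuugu
miR-152-3p: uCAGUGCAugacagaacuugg
miR-130b-3p: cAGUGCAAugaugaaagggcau
miR-301a-3p: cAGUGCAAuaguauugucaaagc
miR-181c-5p: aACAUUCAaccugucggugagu
miR-181d-5p: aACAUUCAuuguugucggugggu
miR-362-5p: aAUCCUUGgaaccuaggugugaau
miR-500-5p: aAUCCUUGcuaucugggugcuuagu
miR-326-3p: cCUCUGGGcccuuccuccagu
miR-330-5p: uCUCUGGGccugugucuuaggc
These pairs are shown because different hosts or neighbouring hairpins then present the same seed. Mir148b and Mir152 lie in Copz1 and Copz2, which encode paralogous subunits of the COPI vesicle coat. Mir181c and Mir181d are neighbours in Nanos3, and Mir362 and Mir500 in Clcn5.

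A same-strand peak lay over 143 of the 676 hairpins in replicate 1, which is 21.2% with a 95% Wilson interval of 18.2 to 24.4. In replicate 2 there were 275 (40.7%, 37.0 to 44.4), and replicate 3 had 279 (41.3%, 37.6 to 45.0). Over all 1174 Mir hairpins the shares were 23.9%, 38.7% and 38.9%. Replicate 1 thus stood below the others although it held more peaks than replicate 2. Of the members, 90 had a peak in all 3 libraries (13.3%, against 15.1% of all Mir hairpins), 127 in 2, 173 in 1 and 286 in none. Without replicate 1 the count with a peak in every library was 193, and it was 107 without replicate 2 and 97 without replicate 3.

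**Figure D1:**
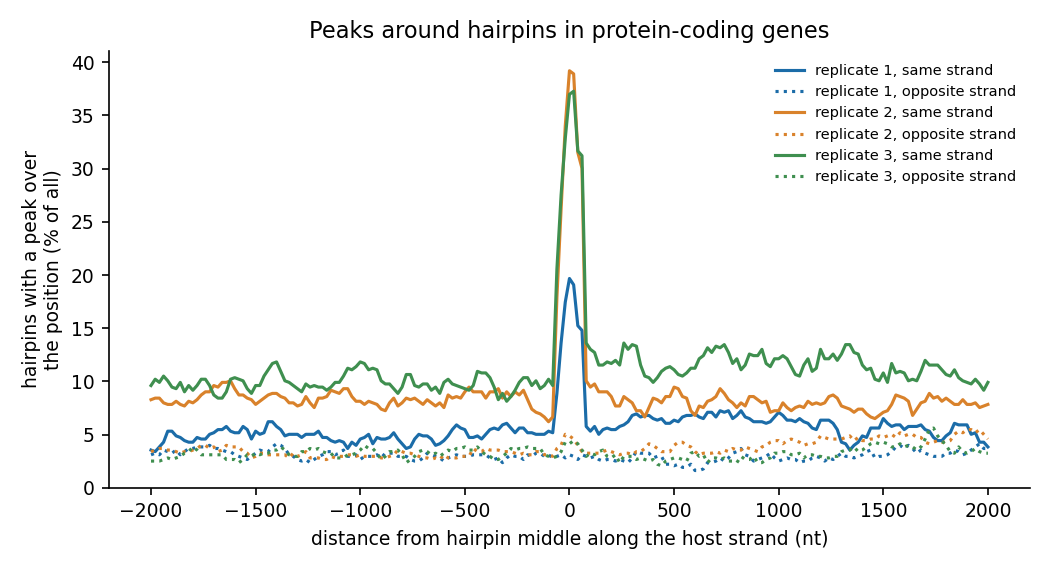
Share of the 676 hairpins with a peak over each position, on the y axis in percent, by distance from the hairpin middle along the host strand in nt, for the 3 libraries and both strands. Same-strand coverage reached 19.7%, 39.2% and 37.0% at the middle in replicates 1, 2 and 3, and stood at 6.36%, 9.47% and 11.1% at 500 nt downstream.

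The peaks followed the strand of the hairpin. On the opposite strand, 23, 38 and 36 hairpins had a peak in replicates 1, 2 and 3 (3.4%, 5.62% and 5.33%), where 5.03%, 6.39% and 7.33% of all Mir hairpins did. In all 3 libraries 0 members had one, against 0.681% of all Mir hairpins. A count of 0 of 676 leaves an upper Wilson limit of 0.565%. The same-strand share exceeded the opposite-strand share by 29.6 ± 10.3 percentage points (mean ± SD, n = 3) and was higher in 3 of 3 libraries (exact sign-flip permutation test, two-sided, p = 0.25). With 3 libraries this test cannot give a p below 0.25, a limit shared by all 8 comparisons over libraries made here, so no adjustment could bring any of them under a threshold.

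Hairpins also stood out from the host transcript around them. Windows of the same length shifted by 500 nt, kept where they stayed in the host and touched no hairpin, had a same-strand peak in 8.25%, 11.8% and 15.2% of 1249 cases. The 672 hairpins with such a window had one in 21.3%, 40.9% and 41.5%. The difference was 22.8 ± 8.60 percentage points (n = 3), higher in 3 of 3 libraries (exact sign-flip permutation test, p = 0.25).

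Between hairpins inside and outside protein-coding genes the direction of the difference changed between libraries. Of the 474 hairpins outside protein-coding genes, 26.6%, 35.7% and 35.9% had a same-strand peak in replicates 1, 2 and 3, and 81 had one in all 3 libraries. Members were lower than these in replicate 1 and higher in replicates 2 and 3, and the mean difference of 1.67 ± 6.15 percentage points was smaller than its spread (exact sign-flip permutation test, p = 1). It was 7.46 ± 6.91 points with top-score peaks only and 4.88 ± 7.49 without the Sfmbt2 hairpins, higher inside genes in 2 of 3 libraries each time. It lay between 0.202 and 0.357 points with unique hairpins only, with hairpins wholly in introns, with peak centres and with peaks of 86 to 200 nt.

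Peaks over hairpins also differed in the score that the authors deposited with each peak. The score has no stated unit and reached its highest value, 60, in nearly all peaks. A score below 60 was given to 1.14%, 0.678% and 0.350% of all peaks in replicates 1, 2 and 3. Among same-strand peaks over members it was given to 64 of 175, 95 of 367 and 97 of 366 (36.6%, 25.9% and 26.5%). Over the flanking windows it was given to 15.6%, 7.41% and 3.77%, so members exceeded their surroundings by 20.7 ± 2.13 percentage points (n = 3, 3 of 3 libraries, exact sign-flip permutation test, p = 0.25).

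Low scores were more frequent over hairpins that recurred, given here without a test. Where a hairpin had a peak in all 3 libraries, 47.9%, 60.0% and 59.4% of its peaks scored below 60, and where it had a peak in only 1 or 2 libraries, 13.8%, 7.17% and 7.73% did. Hairpins in which every 24-nt stretch was unique in the genome had shares of 37.6%, 25.9% and 26.3%, close to those of all members. For peaks of 86 to 200 nt the excess over flanking windows was 43.3 ± 2.72 percentage points, and for peaks of at most 85 nt it was 5.02 ± 3.14. Hairpins outside genes had 54%, 50.7% and 43.1% of their peaks below 60. What lowers the score was not tested.

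**Figure D2:**
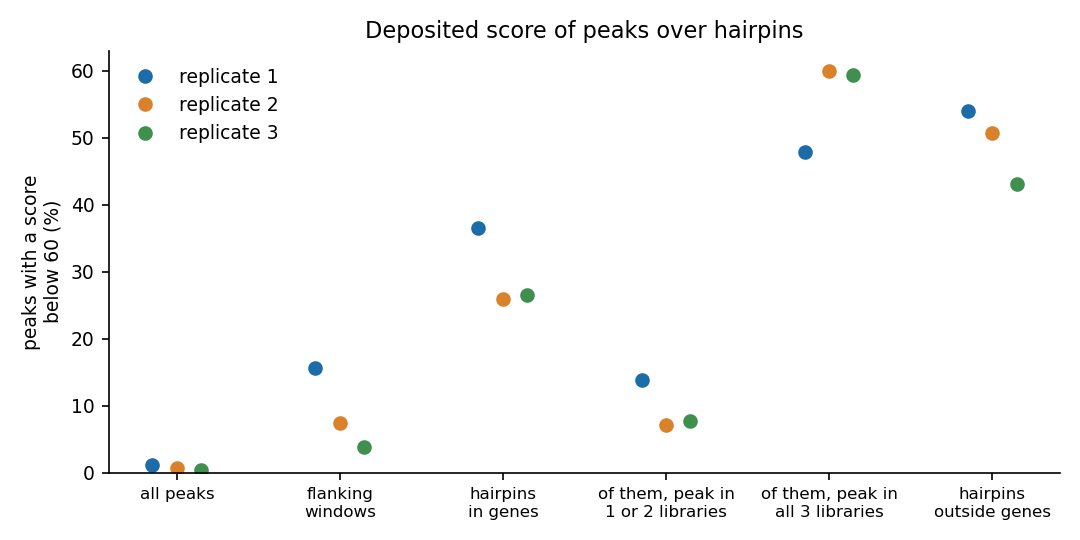
Share of peaks with a deposited score below 60, on the y axis in percent, for all peaks, flanking windows, hairpins in genes (also split by the number of libraries with a peak) and hairpins outside genes, with 1 point per library. Peaks over hairpins with a peak in all 3 libraries scored below 60 in 47.9% to 60.0% of cases, against at most 1.14% of all peaks.

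Peak centres covered many of the arms that become mature miRNAs. At least 1 mature arm was listed for 556 of the members, and a peak centre covered an arm in 117, 234 and 219 of them in replicates 1, 2 and 3. In 69 of the 556 the same arm was covered in all 3 libraries, as it was in 141 of the 1007 Mir hairpins with a listed arm (14%). The 69 became 145 without replicate 1, 15 with top-score peaks only, 30 with peaks of 86 to 200 nt and 2 with peaks of at most 85 nt. Of these 69, 25 had such a peak on the 5p side only, 25 on the 3p side only and 19 on both sides. The 5p side held 72 of 153, 143 of 313 and 146 of 304 arm centres in replicates 1, 2 and 3, and the 3p side held more in each. Whether this differs from the split of the listed arms between the sides was not tested. In 12, 25 and 27 hairpins, 1 centre covered both arms. Long peaks were counted too. Of the arm centres, 25, 30 and 19 came from peaks longer than 1000 nt, and 3, 2 and 2 of those began within 2 nt of the mature 5′ end.

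The 5′ end of the peak centre coincided with that of the mature miRNA far more often than the 3′ ends did. The 5′ ends were equal in 49.7%, 43.8% and 41.8% of arm centres, and the 3′ ends in 2.61%, 3.51% and 3.95%. Within 2 nt the shares were 67.3%, 61.0% and 59.2% for the 5′ end and 26.8%, 27.2% and 28.9% for the 3′ end, a difference of 34.9 ± 5.21 percentage points (n = 3, 3 of 3 libraries, exact sign-flip permutation test, p = 0.25). The centre typically ran past the mature 3′ end, by a median of 4 nt in each library. On the plus strand the 5′ ends were equal in 57.1%, 49.7% and 47.3%, and on the minus strand in 40.6%, 36.2% and 35.3%, with 0 nt the most frequent distance on both.

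**Figure D3:**
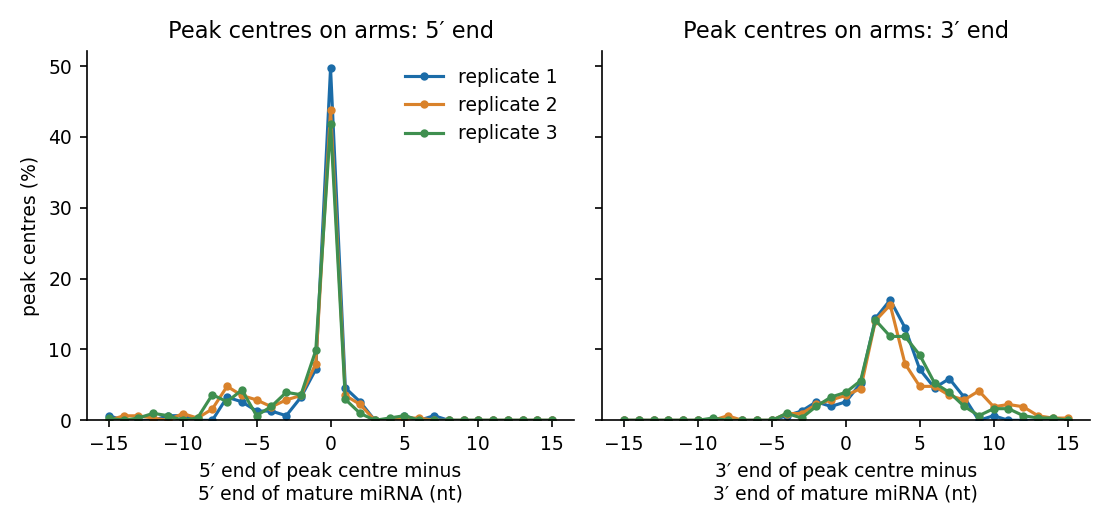
Distance in nt from the 5′ end (left) or 3′ end (right) of the mature miRNA to the same end of the peak centre, on the x axis, and the share of arm centres in percent on the y axis, for the 3 libraries. Negative values lie upstream. The 5′ ends pile up at 0 (49.7%, 43.8% and 41.8%), and the 3′ ends spread over several nt downstream.

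On arms covered in every library, replicate 1 placed the 5′ end closer to the mature end than the others did, a description with no test. Among all arm centres of tailed mirtrons and mirtrons, given below, it had the lowest share within 2 nt. Over the 89 arms covered in all 3 libraries, the centre began within 2 nt of the mature 5′ end in 65 in replicate 1 and in 31 in each of replicates 2 and 3. It began 3 to 12 nt upstream in 12, 37 and 38 arms, and further upstream in 12, 21 and 20. It began more than 2 nt downstream in 0 arms in any library. miR-98-5p, a let-7 family member in an intron of the ubiquitin ligase gene Huwe1, began at distances of 0, -6 and -7 nt in replicates 1, 2 and 3, and miR-30e-5p, in the transcription factor gene Nfyc, at -7, -7 and -8 nt. The median width of these centres was 26, 36 and 35 nt, and the part of width in the shift was not tested.

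The shift can be followed in arms of well-known hairpins. They are shown here because their centres were present in all libraries but often began upstream of the mature end, again with the RefSeq sequence and the seed in capitals.
miR-21a-5p: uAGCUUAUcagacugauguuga
miR-26b-5p: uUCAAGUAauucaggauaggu
miR-30e-5p: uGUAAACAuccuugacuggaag
miR-32-5p: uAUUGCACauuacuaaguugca
miR-98-5p: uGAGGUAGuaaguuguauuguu
miR-126a-3p: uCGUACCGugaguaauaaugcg
miR-7a-1-3p: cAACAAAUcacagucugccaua
miR-32-5p, in Tmem245, began at -7, -7 and -6 nt in replicates 1, 2 and 3, with centres of 30, 36 and 49 nt. miR-26b-5p, in the phosphatase gene Ctdsp1, began at -7, -2196 and -6 nt, so replicate 2 had a long peak reaching through the host upstream. miR-126a-3p began at 0, -37 and -7 nt and miR-7a-1-3p at 0, -10 and -12 nt. Replicate 1 was thus the closest to the mature end in both, while for miR-30e-5p and miR-32-5p all libraries shared the shift.

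The pairs that share a seed behaved alike only in part. miR-148b-3p began at 0, -6 and -37 nt and miR-152-3p at 0, -7 and -5 nt. miR-181d-5p began at 0, -6 and -2 nt, but its neighbour miR-181c-5p began at -3, -5270 and -5270 nt, with peaks of more than 5 kb in replicates 2 and 3. miR-130b-3p began at 0, -45 and -47 nt with the centre running through the 5p arm in replicates 2 and 3, and miR-301a-3p at -2, -5 and -5 nt. miR-326-3p, in the beta-arrestin gene Arrb1, began at 0, -7 and -1 nt. In each of these pairs replicate 1 lay within 3 nt of the mature end for the arms named here.

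Arms of hairpins listed below as neural had no constant order of the libraries. miR-139-5p began at 0, 0 and -6 nt, and miR-149-5p at 0, -5587 and -2 nt. miR-153-3p, known to act on synaptic genes, began at -2, -1 and -3 nt, and its centre was 2298 nt wide in replicate 1 and 35 and 32 nt in replicates 2 and 3. miR-338-5p began at 0, -644 and -4 nt and miR-338-3p at -4, -7 and -39 nt. In these arms the long centres were in replicate 1 for miR-153-3p and in replicate 2 for miR-149-5p and miR-338-5p.

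Under the 2 nt rule, 19 hairpins (20 arms) qualified in all 3 libraries, while 3.28% of the Mir hairpins with a listed arm did so. The 19 became 76, 38 and 34 without replicates 1, 2 and 3 in turn, 9 with a tolerance of 0 nt, 10 with top-score peaks only, 3 with peaks of 86 to 200 nt and 2 with peaks of at most 85 nt. The most regular were in hairpins with unlike hosts. Both arms of Mir340 (chr11:50069702-50069799, plus strand, an intron of the ubiquitin ligase gene Rnf130) began at exactly 0 nt in every library, and their centres were 23 to 27 nt wide. miR-1964-5p (chr7:29773294-29773376, plus strand, an intron of the zinc finger gene Zfp84) began at 0 nt with a centre of 25 nt in all 3 libraries. miR-701-5p (chr5:111004144-111004252, plus strand, an intron of Ttc28) did so with 23 nt in all 3.

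miR-200b-3p, known for holding cells in an epithelial state through Zeb1 and Zeb2, began at 0 nt with centres of 26, 25 and 26 nt (chr4:156055681-156055750, minus strand, an intron of Ttll10). miR-449c-5p, of the miR-34 and miR-449 family that acts in ciliated cells, began at 0 nt with 27, 31 and 28 nt (chr13:113035983-113036091, plus strand, an intron of Cdc20b). miR-1930-5p (chr10:77641224-77641307, plus strand, Ube2g2) began at 0 nt with 24, 26 and 25 nt. On these arms the centres of the 3 libraries differed only at the 3′ end.

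Other arms kept the 5′ end but not the width. miR-708-3p, in an intron of the teneurin gene Tenm4 (chr7:96249424-96249532, plus strand), began at 1, -1 and 0 nt, but its centre was 6520 nt wide in replicate 2 and 24 and 26 nt in replicates 1 and 3. miR-466q (Tnik, chr3:28419943-28420018, plus strand) began at -1 nt in every library, with a centre of 524 nt in replicate 2 and 24 nt in the others. miR-101b-5p (Rcl1, chr19:29135279-29135375, plus strand) began at 0 nt in every library and was 24, 71 and 66 nt wide, so in replicates 2 and 3 the centre ran through the loop into the 3p arm. miR-148b-5p (Copz1, chr15:103285125-103285221, plus strand) began at 1, 0 and 0 nt and was 25, 31 and 65 nt wide.

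The remaining arms under this rule began from -2 to 2 nt. miR-28a-3p (Lpp, chr16:24827855-24827940, plus strand) began at 0, -2 and -1 nt, miR-3099-3p (Usp29, chr7:6803587-6803670, plus strand) at 0, 0 and -2 nt, and miR-500-5p (Clcn5, chrX:7237683-7237774, minus strand) at 0, -1 and 0 nt. miR-5618-3p (Tmem123, chr9:7784390-7784440, plus strand) began at 0 nt throughout. On exons, miR-331-5p (Vezt, chr10:93963768-93963863, minus strand) began at 0, -1 and -1 nt. miR-1306-5p began at 2, 2 and -2 nt, with centres of 58, 25 and 69 nt. Its hairpin lies in an exon of Dgcr8 (chr16:18284239-18284317, minus strand), the gene of the RNA-binding partner of Drosha.

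**Figure D4:**
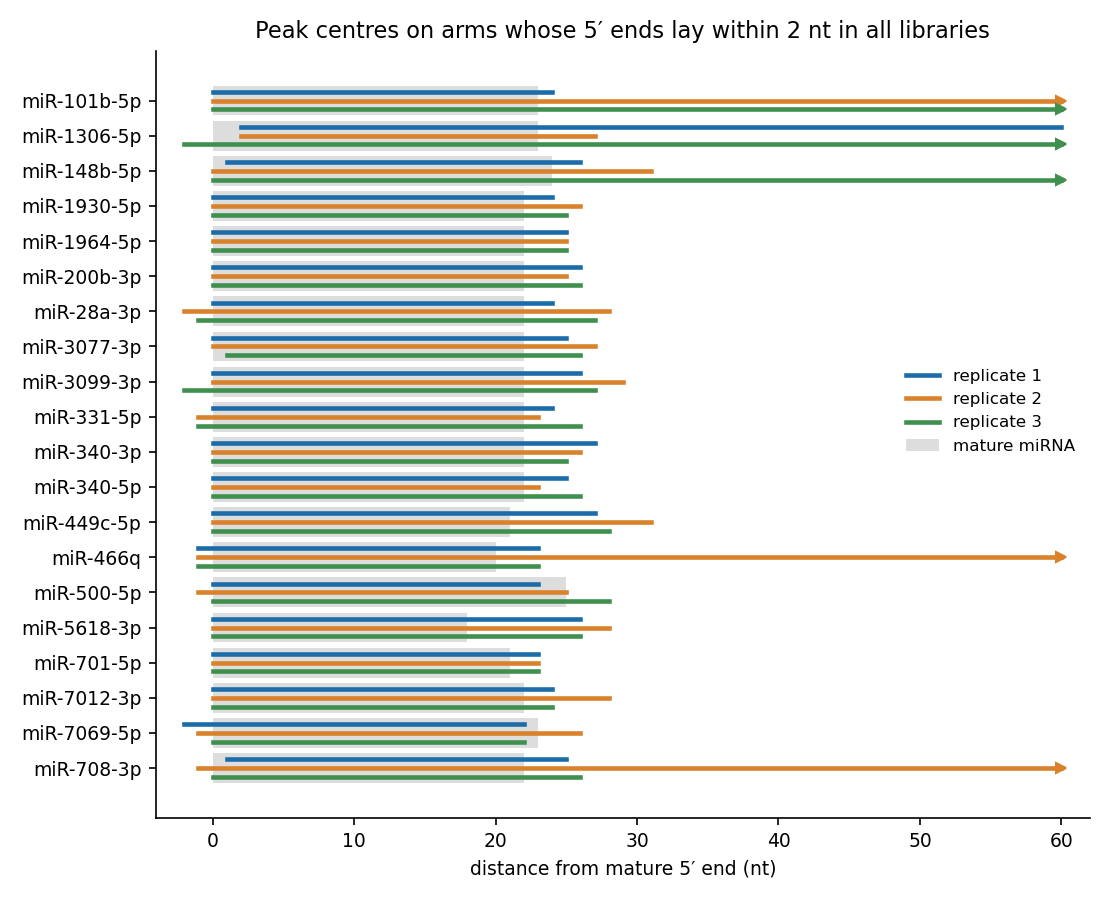
Extent of the peak centre over each of the 20 arms whose 5′ ends lay within 2 nt in all libraries, in nt from the mature 5′ end on the x axis, with 1 coloured line per library and the mature miRNA in grey. Arrows mark centres that run past 60 nt. Both miR-340 arms begin at 0 nt in the 3 libraries, and miR-708-3p extends far downstream in replicate 2 only.

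Tailed mirtrons varied widely between libraries. Of the 202, 17 had a same-strand peak in replicate 1 (8.42%), whose Wilson interval ran from 5.32 to 13.1. Replicate 2 had 91 (45.0%, 38.3 to 51.9), and 87 were covered by replicate 3 (43.1%, 36.4 to 50.0). The 339 interior hairpins had 28.0%, 34.8% and 38.1%. Interior hairpins were therefore ahead in replicate 1 and behind in replicates 2 and 3, a mean difference of 1.45 ± 15.9 percentage points (exact sign-flip permutation test, p = 1). With hairpins of unique 24-nt stretches only, the difference was 11.1 ± 15.3 points and interior hairpins were ahead in 2 of 3 libraries. With peaks of 86 to 200 nt it was 7.18 ± 5.89 points and they were ahead in 3 of 3. In all 3 libraries a peak was found on 8 of 202 tailed mirtrons, 4 of 21 mirtrons and 61 of 339 interior hairpins. Hairpins placed on an exon were also lowest in replicate 1, with 15.6%, 44.8% and 47.9% of 96. Of these, 12 had a peak in all 3 libraries (12.5%), a larger share than in tailed mirtrons (3.96%), given without a test.

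In replicate 1 few arms of these hairpins had a peak centre, and their starts were widely spread. On the 5p side of tailed mirtrons and mirtrons, the centre began at a median of -134 nt in replicate 1 (14 centres) and -1 nt in replicates 2 and 3 (49 and 41 centres). On the 3p side the medians were -291, 0 and 0 nt (13, 70 and 54 centres). The shares of 5p centres that began within 2 nt of the mature 5′ end were 42.9%, 67.3% and 61.0% in replicates 1, 2 and 3. For 3p centres they were 30.8%, 71.4% and 70.4%. Interior hairpins had medians between -1 and 0 nt on both sides in every library.

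The 3p arms of these classes often end in the last bases of the intron, which follows from placing the hairpin at the intron's 3′ end and is no separate finding. Of the 181 listed 3p arms of tailed mirtrons, 136 end in AG (75.1%), as do 11 of 18 in mirtrons (61.1%) and 11 of 202 in interior hairpins (5.45%). miR-3077-3p and miR-7012-3p, printed above, both end in this dinucleotide. miR-3077-3p (Sap18, chr14:57798424-57798487, plus strand) began at 0, 0 and 1 nt, miR-7012-3p (Dennd4b, chr3:90270149-90270212, plus strand) at 0 nt throughout, and miR-7069-5p (Farsa, chr8:84867947-84868008, plus strand) at -2, -1 and 0 nt. Mir1981 in Marc2, Mir3102 in Arhgef17, Mir6944 in Dbn1 and Mir7082 in Raver1 were the mirtrons with an arm covered in all 3 libraries, and Mir3103 and Mir7115 were further tailed mirtrons.

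Arms with the same sequence at several genomic places had almost no peaks. Of 57 member arms with more than 1 exact copy in the genome, 7 had a peak centre in 1 library and 0 in more. Of 720 arms with 1 copy and no near copy, 381 had one in at least 1 library (52.9%) and 81 in all 3 (11.2%). Of 167 arms with 1 exact copy and a place elsewhere that differed by 1 mismatch, 72 (43.1%) and 8 (4.79%) did. How the authors treated reads that align to several places is not given in the sources used here, and its part in these counts was not tested.

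In a few hairpins the arms differed in this way. miR-7a-5p, which several genes encode, had no peak centre at Mir7-1 in any library, while the other arm, miR-7a-1-3p, had one in all 3. miR-16-5p had none at Mir16-2 where miR-16-2-3p had one in 1 library, and miR-218-5p had none at Mir218-1 or Mir218-2 where miR-218-1-3p and miR-218-2-3p each had one in 1. miR-26a-5p, miR-103-3p, miR-24-3p, miR-30c-5p and miR-128-3p, each with 2 exact copies, had none in any library. Of their partner arms with 1 copy, miR-30c-1-3p and miR-103-2-5p had one in 1 library. miR-26a-1-3p, miR-26a-2-3p, miR-24-1-5p, miR-103-1-5p, miR-128-1-5p and miR-128-2-5p also had none, so these hairpins had no peak centre on either kind of arm. Over whole hairpins, 1 of 38 with no unique 24-nt stretch had a peak in any library (2.63%), against 44 of 102 with some (43.1%) and 345 of 536 with only unique ones (64.4%).

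Some clusters were covered throughout and others not at all. The 5 hairpins in an intron of Clcn5, a chloride transport gene on the X chromosome (Mir500, Mir501, Mir362, Mir188 and Mir532), all had a peak in every library. So did Mir181c and Mir181d in Nanos3, and Mir130b and Mir301b in 2610318N02Rik. The 5 hairpins of Htr2c, a serotonin receptor gene (Mir764, Mir1912, Mir1264, Mir1298 and Mir448), had none in any library. Every 24-nt stretch of these 5 was unique in the genome. Of the 3 hairpins in Ttll10, Mir200b had a peak in all libraries, and of the 3 in Cdc20b, Mir449c did, while their neighbours had one in fewer libraries or none. Of the trio Mir23b, Mir27b and Mir24-1 in 2010111I01Rik, Mir23b had one in all.

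The Sfmbt2 cluster had few peaks. Of its 71 hairpins, 5, 4 and 6 had a same-strand peak in replicates 1, 2 and 3, and 62 had none in any library. Mir467d and Mir669h had one in all 3. In 32 of the 71 no 24-nt stretch was unique in the genome, and 0 of those 32 had a peak, whereas 9 of the other 39 did. Without Sfmbt2, 22.8%, 44.8% and 45.1% of the remaining 605 members had a peak.

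Of 31 hairpins listed under widely expressed hosts, 29 were members. Of these, 15 had a same-strand peak in all 3 libraries, 11 in 1 or 2 and 3 in none. The list name rests on no measure of host expression. On both arms in all libraries were Mir33, in the gene of the sterol regulator Srebf2, Mir98, Mir148b, Mir340, Mir342 (Evl) and Mir361 (Chm). On 1 arm were miR-26b-5p (Ctdsp1), miR-30e-5p, miR-32-5p (Tmem245), miR-140-3p (Wwp2), miR-186-5p (Zranb2), miR-301a-3p (Ska2), miR-335-5p (Mest) and miR-423-3p (Nsrp1). Mir23b had a peak in all libraries but no arm covered in all. Mir26a-1, Mir26a-2 and Mir24-1 had none, and Mir15b, Mir16-2, Mir27b, Mir30c-1, Mir103-1, Mir103-2, Mir107, Mir185, Mir455, Mir483 and Mir744 had one in 1 or 2 libraries.

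Of 28 hairpins listed as neural, 26 were members. Of these, 10 had a peak in all 3 libraries, 9 in 1 or 2 and 7 in none. The name is that of the list only, and whether each host is a neural gene was not measured. miR-139-5p (Pde2a), miR-149-5p (Gpc1), miR-153-3p (Ptprn2), miR-326-3p (Arrb1), miR-330-5p (Eml2), miR-708-3p and both arms of Mir338, which lies in the neural kinase gene Aatk, had a centre on the arm in all libraries. Mir598 and Mir664 had a peak in all without an arm covered in all. Mir128-1 and Mir128-2, brain-enriched and hosted by R3hdm1 and Arpp21, had none, nor did Mir346 in the glutamate receptor gene Grid1 or the 4 listed Htr2c hairpins. Mir190a (Tln2), Mir488 (Astn1) and Mir874 (Klhl3) had a peak in 2 libraries, and Mir204 (Trpm3), Mir211 (Trpm1), Mir218-1 (Slit2), Mir218-2 (Slit3), Mir504 (Fgf13) and Mir1224 (Vwa5b2) in 1. miR-7a-1-3p, in the RNA-binding protein gene Hnrnpk, belongs to this list too. Both lists were written with earlier results of these data known, and their shares differ from the 13.3% over all members without a test.

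The other members with an arm covered in all libraries are named here by where they sit. In introns these were Mir1249 (5031439G07Rik), Mir126a (Egfl7), Mir1843b (Cop1), Mir3068 (Alkbh1), Mir339 (3110082I17Rik), Mir350 (Cep170), Mir615 (Hoxc5), Mir652 (Tmem164), Mir693 (Xpo5, the gene of the export receptor for pre-miRNAs) and Mir872 (Ift74). On exons they were Mir21a (Vmp1), Mir324 (Dvl2), Mir5114 (Scd2), Mir671 (Chpf2) and Mir700 (Rcan3). Mir196b (Hoxa9) and Mir345 (Slc25a47) lay in a host without a coding transcript over them. Mir21a (chr11:86584067-86584158, minus strand) was covered on both arms, and the centre over miR-21a-5p began at -11, -12 and -12 nt in replicates 1, 2 and 3. Mir22, also without a coding transcript over it in Tlcd2, was covered on the 3p arm.

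A further 21 hairpins had a same-strand peak in all libraries without the same listed arm being covered in all. They were Mir147, Mir301b, Mir467d, Mir491, Mir532, Mir598, Mir664, Mir669h, Mir677, Mir702, Mir719, Mir1843a, Mir1949, Mir23b, Mir5116, Mir6537, Mir6540, Mir6925, Mir7046, Mir7237 and Mir7654. Mir6540 lies in Gap43, the gene of a growth cone protein of neurons.

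Hairpins of other cell types gave a mixed picture. Mir208a and Mir208b, in the cardiac myosin genes Myh6 and Myh7, and Mir378a had no peak in any library, and Mir499 had one in replicates 1 and 3. Mir126a, known from endothelium, had a peak in all 3, and its host Egfl7 had a 3′UTR peak in 2 of them. In the list for thymus and blood, Mir342 and Mir28a had one in all, and Mir151 in 2. Mir342 is also counted above in the list of widely expressed hosts. As a check of the label, 8 of 15 genes of the neuroblastoma and sympathetic lineage had a peak in the 3′UTR in every library, among them Phox2a, Hand2, Gata2, Gata3 and Isl1, against 23.9% of all protein-coding genes with a 3′UTR. The enzyme gene Th had none. In all libraries 0 of 5 muscle, 0 of 4 endothelial, 0 of 3 hepatocyte and 1 of 4 myeloid genes had one, the last being Ptprc.

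**Figure D5:**
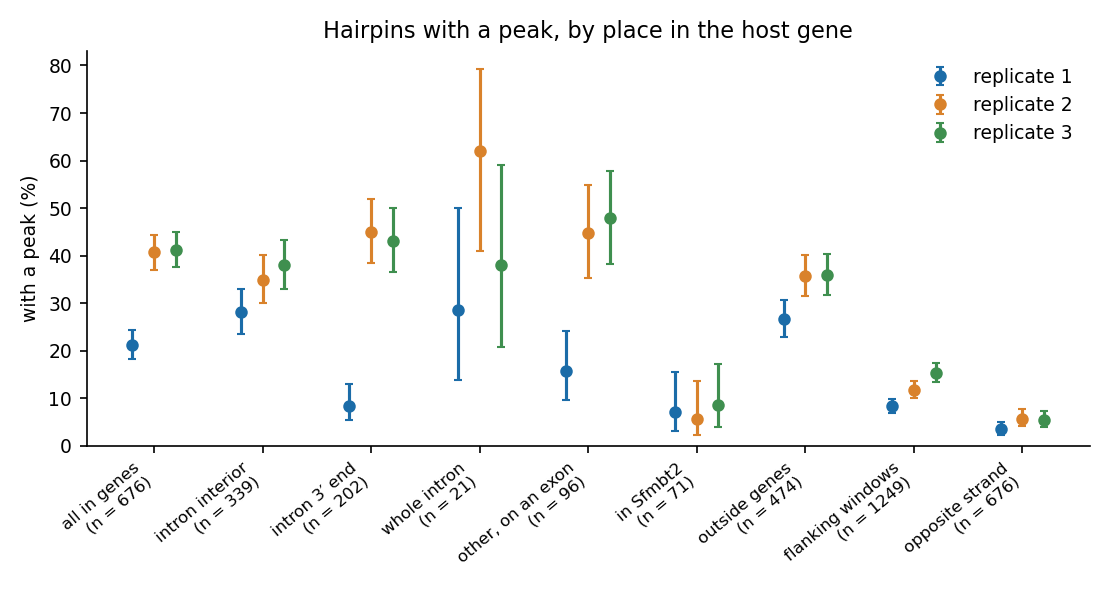
Share of hairpins with a same-strand peak by place in the host gene, with hairpins outside genes, flanking windows and the opposite strand beside them, in percent on the y axis. Points are libraries and bars are 95% Wilson intervals. Hairpins at intron 3′ ends stand at 8.42% in replicate 1 and at 45.0% and 43.1% in replicates 2 and 3.

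Hosts of recurrent hairpins had more peaks per kb of their own, though the grouping itself favours such hosts. A host with many peaks more easily has one over its hairpin. Host peaks were placed by their midpoint, so a long peak could count for both hairpin and host. Outside the hairpins and 200 nt on each side, the 83 hosts of hairpins with a peak in all libraries had 0.327, 0.298 and 0.620 same-strand peaks per kb in replicates 1, 2 and 3, and the other 481 hosts had 0.264, 0.226 and 0.430. The difference was 0.108 ± 0.0709 peaks per kb (n = 3, 3 of 3 libraries, exact sign-flip permutation test, p = 0.25). It was 0.0534 ± 0.0352 for hosts of hairpins with an arm covered in all libraries and 0.169 ± 0.0982 with peaks of 86 to 200 nt. It reversed with peaks of at most 85 nt only, to -0.00563 peaks per kb. Median host lengths were 34.8 and 34.6 kb, but the densities pool all kb of a group, so the longest hosts weigh most. Ptprn2, with 791 kb, lay in the first group, and Lrp1b, with 2058 kb, in the other. Of hosts with a 3′UTR, 43 of 82 in the first group and 205 of 480 in the other had a peak there in every library (52.4% and 42.7%), against 23.9% of all protein-coding genes with a 3′UTR. Host expression was not measured.

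Of the 674 members whose host has a 3′UTR, that 3′UTR was under a peak in all 3 libraries in 333 (49.4%) and in none in 108 (16%). Among the 89 of them with a hairpin peak in all libraries the counts were 48 (53.9%) and 12 (13.5%), and among the 285 with no hairpin peak 125 (43.9%) and 56 (19.6%). These shares lay near those over all members, and no test was made. The 12 were Mir130b, Mir139, Mir153, Mir181c, Mir181d, Mir196b, Mir200b, Mir301b, Mir340, Mir345, Mir449c and Mir598. Rnf130, the host of Mir340, had 0.139, 0.114 and 0.177 peaks per kb, while Hnrnpk, the host of Mir7-1, had 1.37, 1.37 and 5.64. R3hdm1, whose hairpin Mir128-1 had no peak, had 0.470, 0.485 and 2.13. Huwe1, the host of Mir98, had 1.25, 1.30 and 3.85. The densities in replicate 3, the library with the most peaks, were the highest of the 3 for each of these hosts.

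Matches to a miRNA's own seed in its host were examined for the 89 arms covered in all libraries. Of these, 22 had at least 1 match to their own seed in the host's 3′UTR, 29 matches in all. Of the 29, 16 lay under a same-strand peak in at least 1 library and 0 in all 3. In the 3′UTRs of these hosts, 44% of all positions of the same length lay under a peak in at least 1 library and 3.43% in all 3, so with 29 matches a count of 0 is near that share. The hosts whose matches were covered in 2 libraries were Gpc1, Alkbh1, Tmem245, Srebf2, Eml2, Aatk, Cep170 and Hnrnpk.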

How the data were processed

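The authors deposited 1 table of peaks for the 3 Ago2 HITS‐clip libraries, with a column that names each peak's library and a score column of unstated unit. The submitters' processing notes list FastQC, cutadapt, STAR and the build mm10. The peak caller is not given in the sources used here. That deposited score was used only to split peaks at its highest value. Starts down to -30 were read as peaks padded by 30 nt on each side and counted from 0. The members and lists were chosen with earlier results of these data known.

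Hosts, introns and 3′UTRs came from GENCODE mouse M21, and mature arms from RefSeq (GRCm38.p6). All 1659 arms equalled the genome at their coordinates. A hairpin had a peak when a peak overlapped it by at least 1 nt on its strand. The host was the shortest gene that held it. Uniqueness was counted over 24-nt stretches. The named members were all with an arm covered in the 3 libraries, with positions for those within 2 nt, and the listed hairpins. In the lists of marker genes, given by counts and examples, 1 gene is not reported here. Libraries were compared by an exact sign-flip permutation test, two-sided, and shares carry 95% Wilson intervals. The position and test functions were tested on simulated data. Alternatives covered libraries, score, width, overlap, tolerance, window shift, Sfmbt2, introns only and loci within 10 kb. The table has 0 unused columns of values per sample. Scripts ran in Python 3.11.15 with scipy 1.17.1, numpy 2.4.6, numba 0.67.0, matplotlib 3.10.9 and pandas 2.3.3.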

Additional observations from a re-analysis of the deposited data

How the results depend on the processing

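No paired analysis was possible because the samples form 1 group with no other to pair them with; measures were compared within each library. Leaving out each library in turn gave 97 to 193 hairpins with a peak in every remaining library, 77 to 145 with an arm covered and 34 to 76 with the 5′ end within 2 nt, with replicate 1 the one whose absence gave the highest count. It gave differences of 26.4 to 35.5 percentage points for strand, 19.7 to 27.7 for flanking windows, -0.201 to 5.22 for inside against outside genes (-0.0106 without replicate 2), -7.63 to 7.30 for interior against intron 3′ end, 19.7 to 21.8 for scores below 60 and 0.0967 to 0.133 peaks per kb for hosts. With top-score peaks only the counts of 90, 69 and 19 hairpins became 30, 15 and 10, with peaks of 86 to 200 nt 44, 30 and 3, and with peaks of at most 85 nt 5, 2 and 2. Narrow peaks alone reversed the host difference (-0.00563 peaks per kb) and that of interior against intron 3′ end (-3.14 percentage points). With a tolerance of 0 nt, 9 hairpins kept the 5′ end in all libraries. The causes were not tested. The alternative with unique hairpins only, the comparison of interior with intron 3′ end hairpins and that of scores were added after seeing the data. The table gives intervals without read counts, so neither depth nor abundance of a miRNA can be read from it.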
